A study of Rattus norvegicus with 6 samples.

Results

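The transcript described here is TCONS_00067610, a long non-coding RNA (lncRNA) transcript that the deposited table assigns to Slc12a1. Its members were chosen by name, as every row with the gene name Slc12a1 or the locus XLOC_041919, and both criteria found the same row, so 1 of 2455 transcripts with values is described. RNA sequencing had been done on total RNA of male Brown Norway (BN) rats, an inbred strain, at 6 weeks of age, with no treatment or mutation named in the labels. The groups were outer medulla, a region of the kidney, and cortex, followed by adrenal gland, liver, left ventricle and hypothalamus, each with 1 sample in the labels and 2 value columns in the table. No organ is named for cortex. For 5 tissues the column code fits the label, whereas code B was given to hypothalamus as the tissue left over, and every hypothalamus value depends on this. Nothing states that paired columns are separate animals, so p-values below reflect the spread of the columns alone, and that spread could be technical.

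Slc12a1 encodes NKCC2, the sodium-potassium-chloride cotransporter in the apical membrane of the thick ascending limb of the loop of Henle and the target of loop diuretics such as furosemide. The thick limb runs through the outer medulla into the kidney cortex, reabsorbs salt without water and so helps to set the concentration of the urine. Salt transport in this segment has long been studied in the Dahl salt-sensitive rat, which the title of the series also names, although BN rats alone were analysed here. A lncRNA at such a gene can be a separate RNA or a fragment of the gene's own transcripts, and a table of levels does not tell them apart.

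The transcript was 530 bases long, shorter than the median of 1758 bases for all transcripts in the table, and 289 of the 2455 transcripts (11.8%) were shorter. It was the only transcript listed at its locus, which spans chromosome 3, 123944514 to 124022076 on rn5, an interval of 77562 bases. The transcript thus made up 0.683% of the interval that the table gives for its locus. Its class code was o, which in Cufflinks tables marks an overlap with exons of a reference transcript that is neither a match nor a shared splice junction. The reference transcript was ENSRNOT00000008857, and 226 of the 2455 transcripts had the same code. The table gives neither the exons nor the strand of the transcript. RefSeq, on the later assembly GRCr8, gives the Slc12a1 gene a length of 76774 bases, close to the interval of 77562 bases. The interval thus need not be the extent of the transcript. For the gene RefSeq lists 4 transcripts, of which 3 are coding and 1 is non-coding. Whether the non-coding one is the RNA measured here was not tested. The library kit keeps the strand of the RNA, but no source used here states that counting was by strand. Class o is not the code for an overlap on the opposite strand. The values may thus include reads of Slc12a1 messenger RNA with either way of counting.

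The start region of Slc12a1 is shown because the results turn on where RNA from this locus was found. The window runs from 250 bases before to 50 bases after the more upstream of the 2 start sites that RefSeq gives, 69 bases apart, on the plus strand of GRCr8 (chr3:132859340-132859639). This is a later assembly than the rn5 of the expression table, and no start site of the 530-base transcript is given, so the window belongs to the gene and not to the transcript. Capitals mark the sequence CCAAT, the CCAAT box bound by NF-Y.
Slc12a1 start region: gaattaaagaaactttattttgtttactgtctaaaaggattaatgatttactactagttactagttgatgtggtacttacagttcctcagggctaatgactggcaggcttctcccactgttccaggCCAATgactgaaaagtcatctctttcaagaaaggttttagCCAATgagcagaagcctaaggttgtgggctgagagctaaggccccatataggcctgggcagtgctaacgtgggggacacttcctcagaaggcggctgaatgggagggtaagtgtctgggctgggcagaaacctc
Searched on both strands, CCAAT occurred 2 times in this window, both on the plus strand, with the first base 124 and 84 bases before the start. At least 1 CCAAT was present in 37.5% of all 33469 start regions of the same length. The TATA box TATAAA (in 14.2% of start regions), the HNF1 half-site GTTAAT (7.45%) and the oestrogen-related receptor half-site AAGGTCA (4.61%) were not among the letters of the Slc12a1 window. These are matches of letters and not measured binding sites, and the matches do not overlap.

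RNA of the Slc12a1 transcript was found almost entirely in outer medulla and cortex. The values are FPKM, fragments normalised to transcript length and library size, as the authors deposited them. FPKM was 36.5 in column 1 and 36.6 in column 2 of outer medulla. In cortex it was 12.2 in column 1 and 14.7 in column 2. Both outer medulla columns lay above both cortex columns, and both cortex columns lay above every column of the other 4 tissues. FPKM was 1.501 and 0.146 in adrenal gland, 0 and 1.32 in liver, 0.250 and 0.491 in left ventricle, and listed at 0 in both hypothalamus columns, in the order of column 1 and column 2. The lowest cortex column was 8.13 times the highest value outside outer medulla and cortex, which was that of adrenal gland column 1.

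By tissue, the mean FPKM was 36.6 ± 0.0837 in outer medulla, 13.5 ± 1.76 in cortex, 0.824 ± 0.958 in adrenal gland, 0.660 ± 0.933 in liver, 0.371 ± 0.171 in left ventricle and 0 in hypothalamus (SD, n = 2 columns each). Outer medulla held 70.5% and cortex 25.9% of the sum of the 6 means, together 96.4%. The first steps of this order, outer medulla over cortex and cortex over adrenal gland, separated all columns. Below them the ranges of adrenal gland, liver and left ventricle overlapped, and liver column 1 was at 0 like both hypothalamus columns, so the order of these 4 tissues is not resolved. In bulk tissue, fewer cells of a type and less RNA per cell cannot be told apart, and this holds for every difference between tissues given here.

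**Figure D1:**
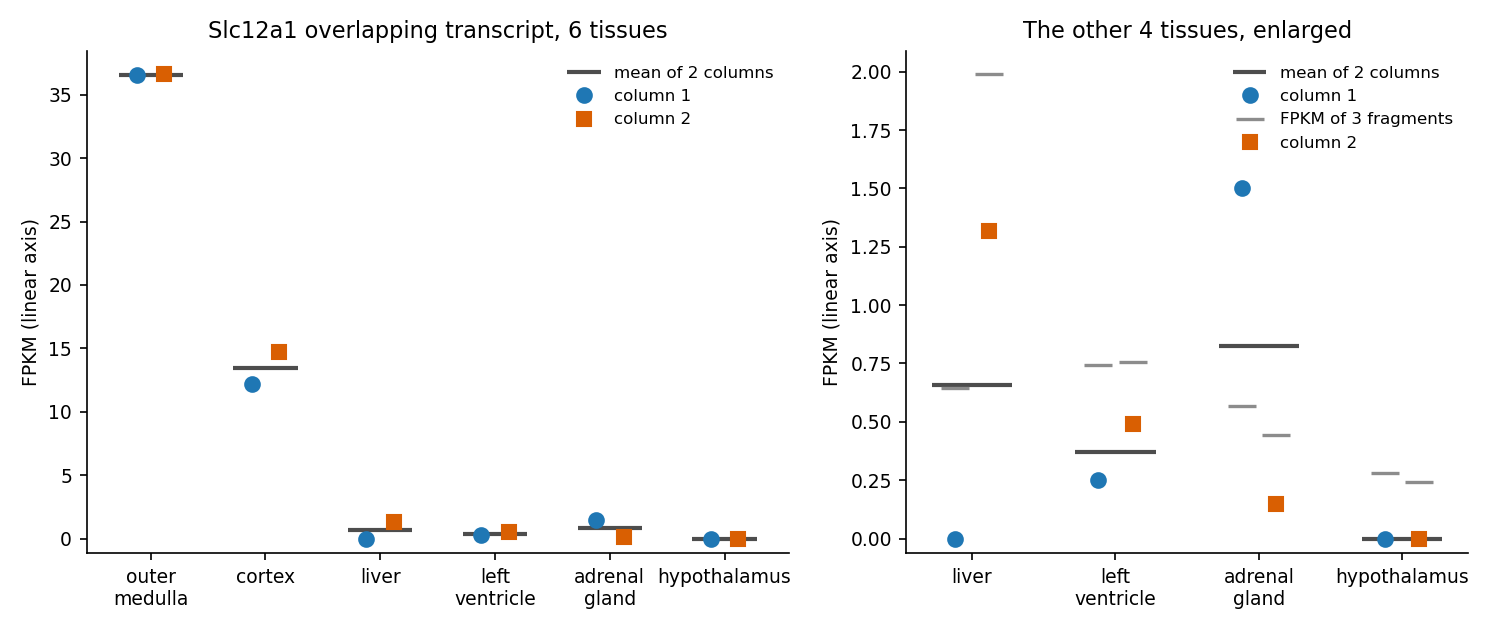
FPKM of the Slc12a1 transcript in each of the 12 columns (left, all tissues; right, an enlarged scale for liver, left ventricle, adrenal gland and hypothalamus), with bars for the mean of 2 columns and grey dashes for the FPKM that 3 fragments would give. Both outer medulla columns stand near 36.6, the cortex columns at 12.2 and 14.7, and in the enlarged part the value of 1.501 in adrenal gland column 1 alone lies above its dash.

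The number of fragments behind these values could be estimated, because low FPKM values fall on steps that correspond to whole fragments. Over other transcripts that were alone at their locus, the steps implied between 3870000 fragments in liver column 2 and 31920000 in hypothalamus column 2, with a mean fragment of 140 bases. Between 83.8 and 91.1% of the low values then lay within 0.15 of a whole number. For the Slc12a1 transcript this came to about 254 and 260 fragments in outer medulla and 82 and 84 in cortex. In adrenal gland it came to 8 and 1 fragments, in liver to 0 and 2, in left ventricle to 1 and 2, and in hypothalamus to 0 in both columns. For this transcript 1 fragment stood for 0.144 and 0.141 FPKM in the outer medulla columns, more than their SD of 0.0837. That SD is thus smaller than counting error and understates the spread. With 3 fragments as the limit that a count of 0 allows, the transcript could have had an FPKM of up to 0.280 and 0.241 in the hypothalamus columns and still be listed at 0. For the shallow liver column 2, 3 fragments would give 1.99 FPKM, and the 2 fragments there gave 1.32. Outside outer medulla and cortex, adrenal gland column 1 was the only column with more than 3 fragments. Columns with 1 or 2 fragments lie below 3 by definition, so the limit is not a threshold for detection.

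From these fragment numbers the level per depth was 2.75 times as high in outer medulla as in cortex, with an exact 95% interval of 2.30 to 3.29 for the counting error. Outer medulla was 49.1 times as high as adrenal gland (25.7 to 108) and 97.8 times as high as left ventricle (33.3 to 476). Against liver, with 2 fragments in all, the ratio was 113 with an interval of 31.0 to 933. For cortex the ratio was 17.9 to adrenal gland (9.20 to 39.8), 35.6 to left ventricle (11.97 to 174) and 41.0 to liver (11.2 to 342). Intervals and limits cover counting error only. No ratio is given to hypothalamus, where the transcript was listed at 0.

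Adrenal gland column 1 stood at 4.10% of the outer medulla mean of the transcript, and column 2 at 0.399%. Other transcripts whose outer medulla mean reached 5 FPKM and was at least 10-fold above liver, left ventricle and hypothalamus were looked at in the same columns, a set chosen after values were seen. These 21 transcripts stood at a median of 3.33% of their outer medulla level in adrenal gland column 1 (quartiles 1.71 and 6.38%) and 1.05% in column 2 (0.00108 and 2.97%). Column 1 was the higher one for the set as for the Slc12a1 transcript, and the part of this in the adrenal value was not tested.

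Among all lncRNA transcripts the one at Slc12a1 was one of the most abundant in outer medulla. It ranked 6 from the top in both outer medulla columns, among 1771 and 1752 transcripts above 0. It held 1.16 and 1.15% of the summed FPKM of these columns. In cortex it ranked 31 and 25, among 1688 and 1649 transcripts above 0. Its share there was 0.171% in column 1 and 0.396% in column 2. The summed FPKM of the cortex columns was itself unlike, at 7160.75 and 3708.64. Among the 226 transcripts of class o, it had the second rank in each outer medulla column and ranks 5 and 3 in cortex columns 1 and 2. Elsewhere its ranks were 302 and 1089 in adrenal gland, 827 and 602 in left ventricle and 346 in liver column 2.

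The difference between outer medulla and cortex was tested from the 4 columns of these tissues alone, with limma on log2(FPKM + 0.1) over all 604 transcripts whose mean reached 1 FPKM in either. The Slc12a1 transcript was higher in outer medulla by 1.44 on the log2 scale (SE 0.116, 95% interval 1.11 to 1.78), a fold of 2.72. It was higher there in all 4 pairings of columns. It passed at a Benjamini-Hochberg adjusted p of 0.0101 (limma). In the same test 55 of the 604 transcripts (9.11%) were higher and 124 (20.5%) lower in outer medulla at an adjusted p below 0.05. Taken from single columns, the ratio was 2.49 between the lowest outer medulla and the highest cortex column. Between the highest outer medulla and the lowest cortex column it was 3.0. As folds, the 95% interval of the fit ran from 2.155 to 3.43 and took in the whole counting interval given above.

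The call depended on the spread that entered the fit. Where the spread was pooled over all 12 columns, the difference stayed at 1.44 but its SE was 1.21 and its adjusted p 0.465 (limma). That spread takes in the liver columns (0 and 1.32 FPKM) and the adrenal gland columns (1.501 and 0.146), which lie far apart on the log scale. The call was also lost without outer medulla column 1 (log2 difference 1.44, adjusted p = 0.0855), without outer medulla column 2 (1.44, adjusted p = 0.0744) and with the column number as a block (1.44, adjusted p = 0.0550). A fit without 1 column takes the spread of each transcript from the 2 columns of the other tissue, with 1 residual degree of freedom. It assumes that the lone column varies like them, so a call lost or kept there says little about the difference itself. Without a cortex column, the transcript's own spread came from the outer medulla columns alone, at 36.5 and 36.6 FPKM. In every fit limma then moves this spread towards that of transcripts at a similar level. The calls without a cortex column therefore rest on other transcripts as well. Without cortex column 1 the difference was 1.31 (adjusted p = 0.0240), and without cortex column 2 it was 1.58 (adjusted p = 0.0153).

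**Figure D2:**
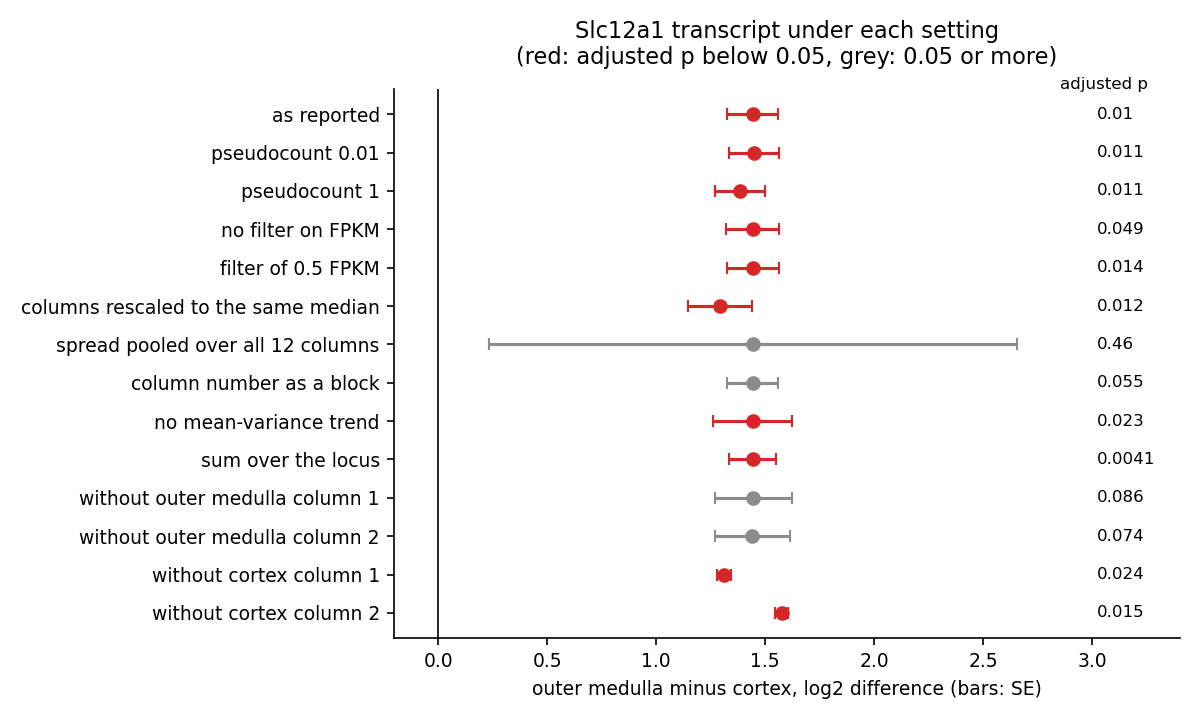
The log2 difference of the Slc12a1 transcript, outer medulla minus cortex, with its SE, as reported and under each other setting, with the adjusted p from limma at the right. The point values lie between 1.29 and 1.58, while the bar is much wider where the spread of all 12 columns enters, with an SE of 1.21 against 0.116.

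The median log2 difference between outer medulla and cortex over the 604 transcripts tested was -0.153. With the columns rescaled to the same median over transcripts present in all 12, the Slc12a1 transcript was higher in outer medulla by 1.29 (adjusted p = 0.0123, limma). In size of difference, 68 of the 604 transcripts had a larger one towards outer medulla. Those next above it were TCONS_00103561 with 1.45, TCONS_00102488 with 1.45 and TCONS_00012664 with 1.504 on the log2 scale, and none of them passed the test (adjusted p = 0.209, 0.574 and 0.0837). Next below came TCONS_00009052 with 1.43 (adjusted p = 0.0259), TCONS_00060972 with 1.40 (0.123) and TCONS_00046765 with 1.38 (0.0564). These 6 neighbours had means of at most 3.86 FPKM in outer medulla, against 36.6 for the Slc12a1 transcript.

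The Slc12a1 transcript combined a high level with a called difference. Of the 604, 38 averaged at least 10 FPKM in outer medulla, and 5 of these 38 had a larger difference than the Slc12a1 transcript. In the same 38, 11 were called higher and 6 lower in outer medulla. Among all 55 transcripts called higher in outer medulla the Slc12a1 transcript had the second highest level there, after TCONS_00100529, and rank 37 by size of difference. The median of these 55 was an FPKM of 3.12 in outer medulla and a log2 difference of 1.92.

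**Figure D3:**
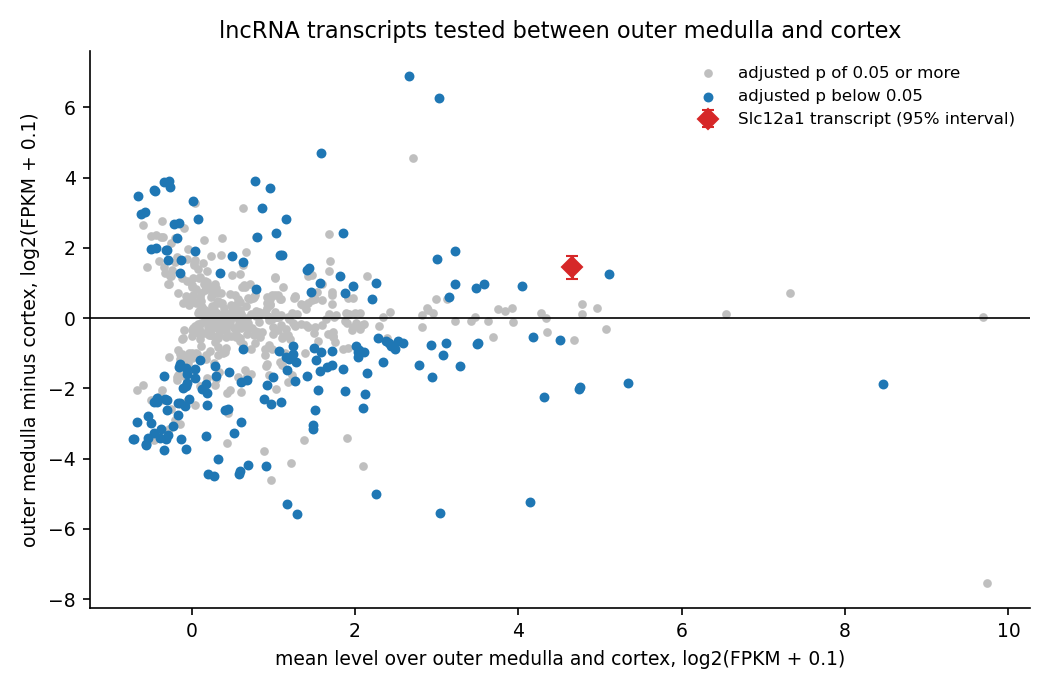
Log2 difference, outer medulla minus cortex, against the mean level over both tissues for the 604 tested transcripts, with those at an adjusted p below 0.05 in blue and the Slc12a1 transcript in red with its 95% interval. The Slc12a1 transcript lies at 1.44, among few transcripts at so high a level.

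Against the other 4 tissues the test was limma over all 12 columns, with transcripts whose mean reached 1 FPKM in either tissue of the pair. The transcript was higher in outer medulla than in liver by 6.61 on the log2 scale (SE 1.21, adjusted p = 0.00157), where 29.9% of 738 tested transcripts were called higher in outer medulla. The difference was 6.33 to left ventricle (adjusted p = 0.00223, with 32.6% of 623 called higher) and 5.87 to adrenal gland (adjusted p = 0.00309, with 32% of 657 called higher). All of these comparisons share the outer medulla columns. In size, 8, 4 and 4 transcripts had a larger difference in the comparisons with liver, left ventricle and adrenal gland. To hypothalamus, listed at 0 in both columns, the test also passed (adjusted p = 3.57e-04, limma, with 50.2% of 584 called higher), and no fold is given.

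In cortex the transcript was higher than in liver by 5.16 on the log2 scale (SE 1.21, adjusted p = 0.00556, limma), where 33.9% of 772 tested transcripts were called higher in cortex. The difference was 4.89 to left ventricle (adjusted p = 0.00711, with 40.6% of 678 called higher) and 4.43 to adrenal gland (adjusted p = 0.0112, with 38.6% of 712 called higher). The test against hypothalamus also passed (adjusted p = 7.99e-04, with 55.8% of 634 called higher). These comparisons share the cortex columns, and each p uses the spread of all tissues. The differences to liver moved most with single columns, with the calls kept. Without liver column 1 they were 4.69 for outer medulla and 3.25 for cortex, and without liver column 2, which leaves a listed 0, they were 8.52 and 7.08. The call of cortex over adrenal gland was lost without adrenal gland column 2, where the log2 difference was 3.08 (adjusted p = 0.0906), and without cortex column 2, where it was 4.29 (adjusted p = 0.0555). Fitted differences to such low values depend on the added 0.1, and the counting ratios above do not.

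Transcripts at other loci with the most similar profile were found by Pearson's r on log2(FPKM + 0.1), over the 6 tissue means, among 1268 transcripts whose mean reached 1 FPKM in any tissue. The points are only 6 tissue means, so r is a description. The first 6 were TCONS_00040330 (r = 0.984), TCONS_00007553 (0.983), TCONS_00051794 (0.981), TCONS_00100529 (0.980), TCONS_00095987 (0.979) and TCONS_00046333 (0.973). The fifth of these overlaps Zbed4, a gene of a zinc finger protein, and the table names no reference gene for the other 5. Over all 1268 the median r was 0.0784, and 24 reached 0.95 or more.

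TCONS_00040330 (chromosome 16, 26465059 to 26466673 on rn5) had an FPKM of 14.8 and 14.5 in outer medulla, against 3.68 and 4.05 in cortex. It was at most 0.382 in all other columns and was listed at 0 in both hypothalamus columns. TCONS_00100529 (chromosome 8, 33536860 to 33572665) had 47.3 and 49.4 in outer medulla, against 21.2 and 19.2 in cortex, and 1.64 and 0.505 in adrenal gland. Both were also called higher in outer medulla than in cortex, with a log2 difference of 1.90 (adjusted p = 0.00758, limma) for TCONS_00040330 and 1.26 (adjusted p = 0.00832) for TCONS_00100529. Outer medulla and cortex values entered r itself, so the choice by r favours calls in this direction. TCONS_00007553 (chromosome 1, 35676445 to 35681226) had 10.1 and 12.1 in outer medulla, against 11.96 and 9.70 in cortex, so its columns overlapped between these tissues.

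Likeness of profile did not mean likeness of level or of contrast. TCONS_00051794 had a mean FPKM of 1.53 in outer medulla and 0.415 in hypothalamus, a far flatter profile than that of the Slc12a1 transcript. By the same measure over the 12 single columns, the first 6 were TCONS_00100529 (r = 0.977), TCONS_00007553 (0.971), TCONS_00035632 (0.953), TCONS_00043314 (0.949), TCONS_00086388 (0.946) and TCONS_00098119 (0.944), and 2 of these were also among the 6 found from tissue means. TCONS_00086388 lies antisense to Fggy, a gene of a carbohydrate kinase family, and had 4.95 and 4.67 in outer medulla, against 2.02 and 2.09 in cortex. TCONS_00098119 lies antisense to Grhl2, which encodes an epithelial transcription factor, and had 3.17 and 3.23 in outer medulla, against 1.16 and 0.621 in cortex. Both were called higher in outer medulla (adjusted p = 0.0126 and 0.0339, limma), a direction that the choice by r favours. TCONS_00035632 went the other way, with 17.0 and 18.7 in outer medulla, against 27.97 and 27.02 in cortex, and was called lower in outer medulla (log2 difference -0.62, adjusted p = 0.0209). TCONS_00043314 had 1.07 and 1.14 in outer medulla, against 1.43 and 1.26 in cortex, and did not pass (adjusted p = 0.373). With a pseudocount of 1, 2 of the first 6 from tissue means remained.

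**Figure D4:**
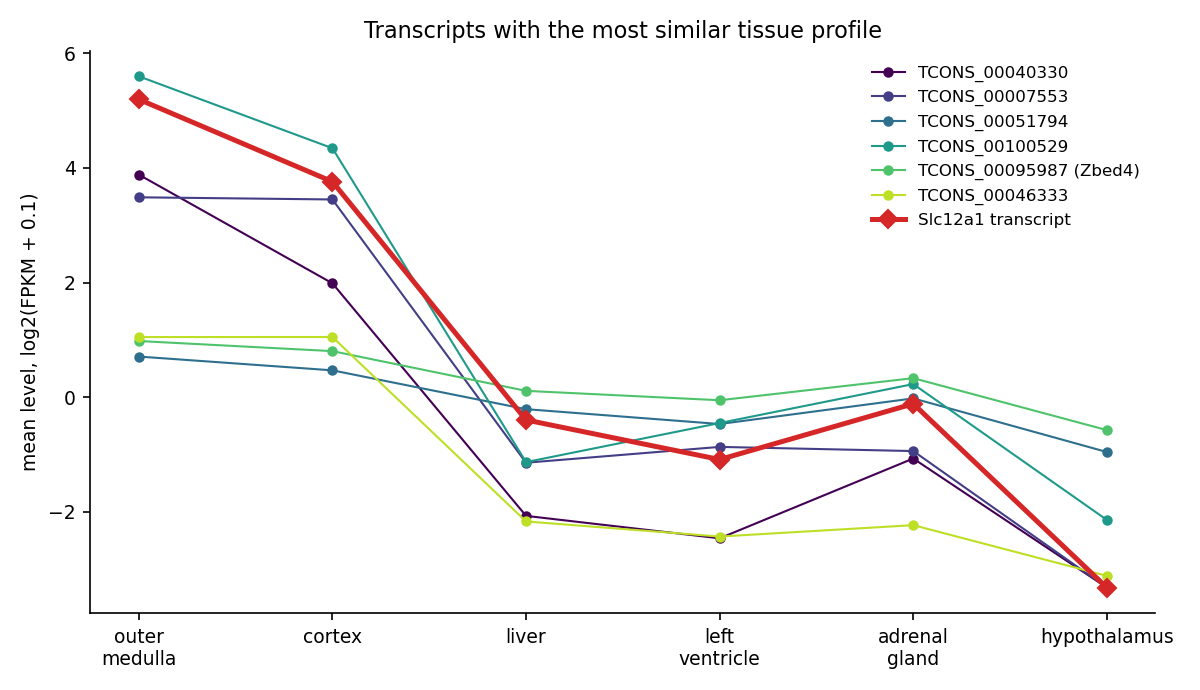
Mean level, on the log2(FPKM + 0.1) scale, of the Slc12a1 transcript (red diamonds) and of the 6 transcripts with the highest Pearson r to it over 6 tissue means. TCONS_00100529 follows it at a similar level, and TCONS_00051794 and TCONS_00095987 share the shape over a much narrower range.

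Few genes of the thick limb have a transcript in this table of lncRNAs. Of a list of 30 genes of thick limb transport and its control, among them Umod, Kcnj1 and Cldn16, 1 was found, Irx2, a homeobox transcription factor of the Iroquois family. Its transcript TCONS_00007547 (chromosome 1, 34682430 to 34688217 on rn5), which shares a splice junction with the gene, had an FPKM of 2.06 and 1.92 in outer medulla, against 1.06 and 1.42 in cortex. Its columns did not overlap between these tissues, but the log2 difference of 0.65 (SE 0.216) did not pass the test (adjusted p = 0.106, unadjusted p = 0.0443, limma), so 0 of 1 list genes passed in either direction. In the other tissues it was at most 0.408.

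Markers that could tell the cell types of the samples apart were mostly missing. Of 6 thick limb markers only Slc12a1 itself was found, and 0 of 10 proximal tubule, 0 of 5 distal convoluted tubule, 0 of 10 collecting duct, 0 of 5 endothelial, 0 of 3 thin limb and vasa recta and 0 of 4 heart markers. The 1 podocyte marker found, a transcript antisense to Wt1, was listed at 0 in all outer medulla and cortex columns. It had 2.69 and 0.496 FPKM in liver, which goes against its use as a podocyte marker. The assignment of the RNA to the thick limb thus comes from the name of the gene, and the table shows its tissue and not its cell type. Transcripts at markers of other tissues were present as well. Of the 4 transcripts at Sox2, a transcription factor gene used as a brain marker, TCONS_00055701 had 4.04 and 4.41 FPKM in the columns given to hypothalamus and at most 0.891 elsewhere. The transcript at Cyp11b3, a steroid hydroxylase gene of the adrenal cortex, reached 60.5 and 44.4 in the adrenal gland columns, against 5.89 or less in all others. The transcript antisense to Afp, the alpha-fetoprotein gene, had 1.41 and 0.679 in liver and at most 0.0713 elsewhere. The transcript at Fga, a fibrinogen gene, went against its use as a liver marker, with 0 in both liver columns and 1.42 and 1.16 in adrenal gland.

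No other gene of the Slc12 family had a transcript in the table. Other solute carriers were 11 transcripts at 7 genes, of which 8, at 4 genes, lie antisense to exons. The highest FPKM among these 11 was 0.776 in outer medulla and 1.56 in cortex, against 36.6 and 14.7 for the Slc12a1 transcript, while the highest in any column was 8.41, at Slc27a5, a bile acid and fatty acid CoA ligase, in liver column 1. Of the 11, 2 had levels that allowed the test between outer medulla and cortex. They were TCONS_00102556, antisense to the organic anion transporter gene Slc22a13, with a log2 difference of -0.51 (adjusted p = 0.328, limma), and TCONS_00019392, antisense to the monocarboxylate transporter gene Slc16a11, with -2.48 (adjusted p = 0.195). Neither passed, also at an unadjusted p (0.213 and 0.107).

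The locus stood alone among the lncRNA loci of the table, with 0 transcripts of other loci within 1 Mb. The nearest one before it, 2.78 Mb away, was TCONS_00067462 at Slc28a2, a nucleoside transporter gene, with an FPKM of 0.290 and 0.368 in outer medulla, against 0.394 and 0.342 in cortex, and 2.49 and 2.32 in left ventricle. The nearest after it, 2.18 Mb away, were TCONS_00071930 and TCONS_00071931, antisense to Tmem127, with at most 0.408 in outer medulla and at most 0.273 in cortex. Neither neighbour had its highest levels in outer medulla or cortex.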

How the data were processed

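Total RNA was prepared with TRIzol and made into TruSeq Stranded RNA LT libraries, per the labels' protocols. The submitters' processing notes name rn5 as genome build and bcl2fastq 2.15.0. The authors deposited FPKM for transcripts selected as lncRNAs, together with other deposited values such as transcript length. No source used here names the aligner, the FPKM program, its annotation or its strand setting. Of 2458 transcripts, 3 without values were left out.

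Tools were R 4.3.3 with limma 3.58.1, and Python 3.11.15 with SciPy 1.17.1, NumPy 2.4.6, pandas 2.3.3 and matplotlib 3.10.9. The limma fits used log2(FPKM + 0.1), a scale that shrinks changes of low values, and a mean-variance trend, and p-values were adjusted over all transcripts tested. Depth came from the steps between low values of transcripts over 500 bases. The 2 columns of each tissue differed by more than counting noise, so neither is a copy of the other. The chi-square per degree of freedom ran from 3.87 in outer medulla to 60.8 in cortex, so these 2 tissues had unequal spreads. Tests were checked on simulated data. The transcript, the gene lists and the tests were chosen with earlier results of these data known. Named transcripts followed a rule: all rows of the locus, the 6 most similar profiles by each of 2 measures, the 3 neighbours on each side by difference, the nearest loci, rows of thick limb genes, and solute carriers of the Slc12 family or called between the tissues. The solute carriers named beyond that, and the nearest loci beyond 1 Mb, were chosen after their values were seen. Start regions came from RefSeq (GRCr8), matched by symbol (1 of 1). Alternatives were other pseudocounts and minimums, rescaled columns, a pooled spread, no trend, sums per locus, a block for the column number and each column left out.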

Additional observations from a re-analysis of the deposited data

How the results depend on the processing

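The difference of the Slc12a1 transcript between outer medulla and cortex kept its direction under all 13 alternatives, with log2 values from 1.29 to 1.58. Its call was lost with the spread pooled over all 12 columns (1.44, adjusted p = 0.465, limma) and with the replicate block for the column number (1.44, adjusted p = 0.0550). With no minimum on FPKM it was barely kept (1.44, adjusted p = 0.0492, limma). Leaving out each column gave 1.31 to 1.58, with adjusted p from 0.0153 to 0.0855. Columns of equal number showed little joint deviation (r of deviations from -0.0714 to 0.128 over 15 pairs of tissues). Counting noise also lowers such an r, so it cannot decide whether the numbers pair the columns. The block left 0 transcripts higher and 1 lower in outer medulla, with 87 and 160 at an unadjusted p below 0.05 (limma). Leaving out each column gave 0 to 15 higher and 0 to 16 lower, against 55 and 124 with all columns. The 0 in both directions came without outer medulla column 1, with 57 and 146 at an unadjusted p below 0.05. With no minimum on FPKM, 45 of 2455 tested were lower, and the cause was not tested.

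The 8 differences of outer medulla and cortex to the other 4 tissues kept their direction throughout. With a pseudocount of 0.01 the calls of cortex over left ventricle (5.21, adjusted p = 0.0558, limma) and cortex over adrenal gland (4.79, adjusted p = 0.0717) were lost. Leaving out each column gave, for outer medulla, 4.69 to 8.52 to liver, 5.96 to 6.71 to left ventricle and 4.52 to 7.22 to adrenal gland, with all calls kept. For cortex it gave 3.25 to 7.08 to liver, 4.51 to 5.27 to left ventricle and 3.08 to 5.78 to adrenal gland, with calls lost in the last alone. Depth limits the levels outside outer medulla and cortex, which rest on at most 8 fragments a column.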
